A study of Mus musculus with 12 samples.

Results

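Brain edema, the swelling that follows intracerebral hemorrhage (ICH), depends on proteins that move water and ions, and 8 genes for such proteins were described here in perihematomal caudate putamen. They were *Aqp4*, *Aqp9*, *Aqp11*, *Slc12a2*, *Slc4a4*, *Abcc8*, *Trpm4* and *Lrrc8a*, chosen by name for their roles, with earlier results of these data known. They are 8 of the 54833 genes in the count table, and all 8 were among the 21495 genes with enough reads to be tested. The samples came from male wild-type C57BL/6 mice in 4 groups: young sham and young ICH mice of 8 to 10 weeks, and aged sham and aged ICH mice of 20 to 22 months. ICH was induced with collagenase, an enzyme that dissolves the matrix of vessel walls, and sham mice received saline at the same place. The ipsilateral caudate putamen was taken 24 h later, after perfusion with phosphate-buffered saline. Each group had 3 samples, and each sample pooled tissue from 2 or 3 mice, so that every *P* value below rests on how much pools differed, not on how much single mice did.

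Water crosses the membranes of brain cells mainly through aquaporins, and it follows ions that cotransporters and channels carry. In the early, cytotoxic phase of edema, sodium and chloride move into astrocytes and neurons with water behind them, and later the injured endothelium lets fluid through. *Aqp4* is the principal water channel of the brain and is concentrated on astrocyte endfeet around vessels, where the dystrophin complex holds it. *Slc12a2* encodes the sodium-potassium-chloride cotransporter NKCC1, and *Slc4a4* encodes the sodium-bicarbonate cotransporter NBCe1 of astrocytes. *Abcc8* encodes the sulfonylurea receptor SUR1, which can join the cation channel TRPM4 in injured tissue and is the target of glibenclamide. *Lrrc8a* encodes the subunit that every volume-regulated anion channel needs, a channel that opens when a cell swells.

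Of these 8 genes, *Lrrc8a* rose after ICH at both ages, *Aqp4* rose in young ICH mice, and *Slc4a4* fell in aged ICH mice. The other 5 did not pass the test in any comparison. In young ICH vs. young sham, 2 of the 8 were called higher at an adjusted *P* under 0.05 and 0 lower, against 9.89% of all genes tested called higher, 9.23% called lower and 19.1% called in either direction. In aged ICH vs. aged sham, 1 of the 8 was called higher and 1 lower, against 7% and 6.15% of all genes tested and 13.2% in either direction. The same shares stand beside the counts in the gene lists below. The median log2FC of the 8 genes was 0.02 in young and −0.05 in aged mice, beside 0.022 and 0.002 over all genes tested. By the criteria of the study, a fold change above 1.5 or below 0.67 with an unadjusted *P* under 0.05, *Lrrc8a* and *Aqp4* passed in young mice and *Lrrc8a* in aged mice. The totals of reads counted on genes lay between 28410896 and 37785160 per sample, and *P* values were adjusted over all 21495 genes.

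The 8 genes differed widely in level. In FPKM, a fragment count divided by transcript length and by sequencing depth, *Aqp4* stood highest with a mean of 42.7 over the 12 samples. *Slc12a2* and *Slc4a4* followed with 21.4 and 21.0 FPKM, and the ranges of these 2 genes over the samples overlapped. *Lrrc8a* had a mean of 6.2 FPKM, *Abcc8* 4.58, *Trpm4* 1.66 and *Aqp11* 1.46. *Aqp9*, a channel that also passes glycerol, was last with 0.353 FPKM, resting on 30 to 67 reads per sample. Within a gene, levels below are given in CPM, counts scaled to a common normalized library size, which are comparable between samples but not between genes.

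**Figure D1:**
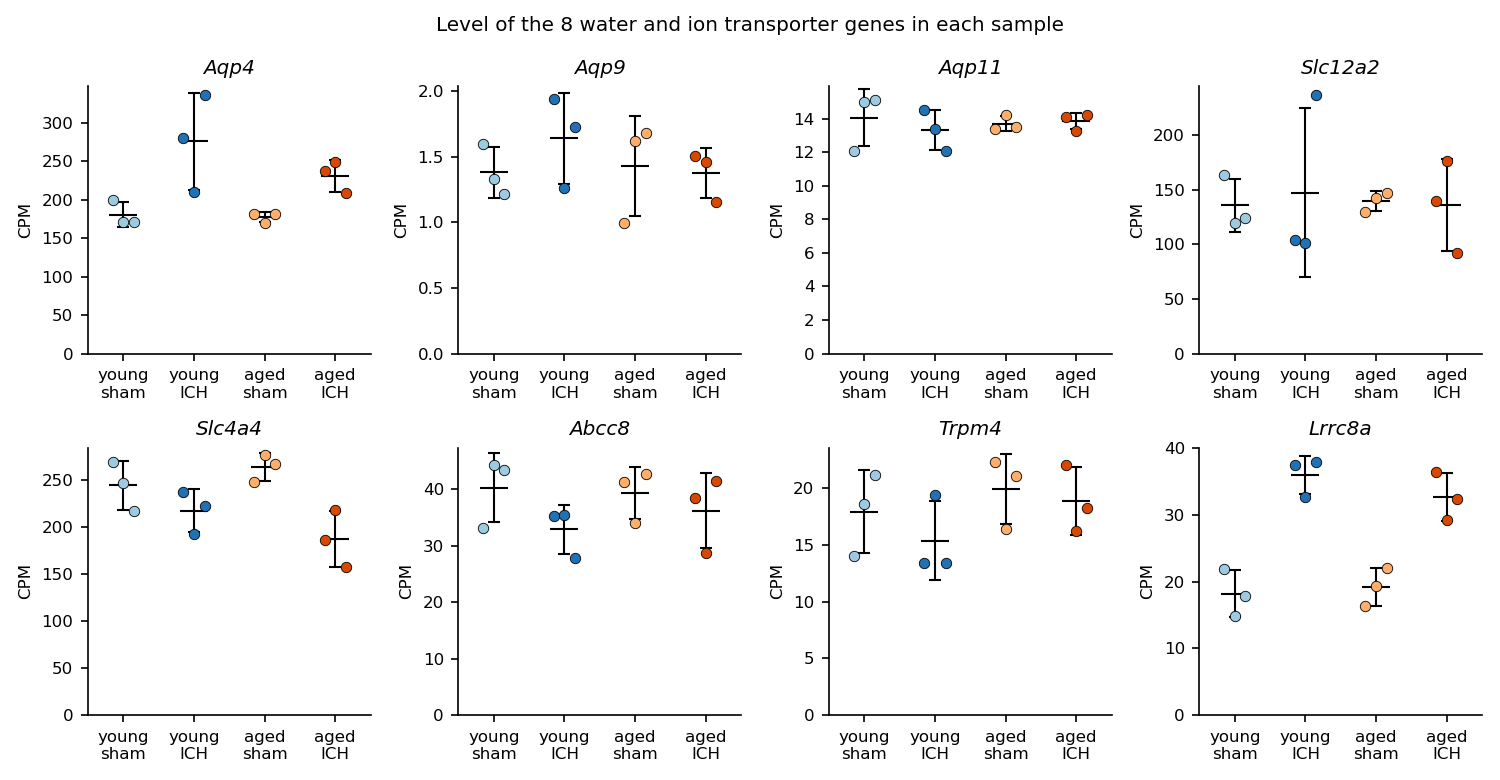
Level of each gene in CPM (vertical axis, linear from 0) in the 4 groups (horizontal axis). Points are samples, the wide bar is the mean and the whiskers are 1 SD of 3 samples. All ICH samples of *Lrrc8a* and *Aqp4* lie above all sham samples of the same age, the aged ICH samples of *Slc4a4* lie below the aged sham samples, and the other 5 genes overlap between sham and ICH at both ages.

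*Lrrc8a* (ENSMUSG00000007476) lies on the plus strand of chromosome 2, from 30237715 to 30263790 in GRCm38. Its level in the 3 young sham samples was 21.9, 14.8 and 17.9 CPM, and in the 3 young ICH samples 37.4, 32.7 and 37.9 CPM. In the aged sham samples it was 16.3, 19.3 and 22.0 CPM, and in the aged ICH samples 36.4, 29.2 and 32.3 CPM. Every ICH sample of either age thus stood above every sham sample of either age, while sham samples of the 2 ages overlapped, and so did ICH samples. The group means were 18.2 ± 3.57 CPM in young sham, 36.0 ± 2.87 in young ICH, 19.2 ± 2.9 in aged sham and 32.7 ± 3.62 in aged ICH mice (SD, n = 3 each). The level rose 1.98-fold in young mice (95% confidence interval 1.58 to 2.47, log2FC 0.98 ± 0.15 SE, edgeR, adjusted *P* = 0.00216). In aged mice it rose 1.7-fold (1.36 to 2.13, log2FC 0.77 ± 0.15 SE, edgeR, adjusted *P* = 0.00963).

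The rise of *Lrrc8a* stayed past the threshold when any 1 of the 12 libraries was left out, with log2FC from 0.85 to 1.14 in young and from 0.66 to 0.88 in aged mice. The highest adjusted *P* in these edgeR fits was 0.0119 in young mice and 0.0497, close to the threshold, in aged mice. Reads of *Lrrc8a* can be shared with *Gm28035*, a gene on the same strand that covers 66.2% of its exon bases and had 0 to 10 reads per sample, and with the antisense gene *1700084E18Rik* over 91 bases, which had 8 to 25 reads per sample. The sources used here do not give whether counting used the strand or how reads with several alignments were handled. Where shared reads were left out, the FPKM of *Lrrc8a* would be too low beside those of other genes, here and below.

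The bases before the RefSeq start of *Lrrc8a* are shown because it is the one of the 8 genes that was called at both ages, and those before the inner start of *Slc4a4* because this is the gene that was called lower. They were read 5′ to 3′ from RefSeq promoters (GRCm38.p6), and only those of 4 of the 8 genes were examined here. Bases that the annotation gives as untranslated region were left out. Capitals mark motif matches on either strand. The *Lrrc8a* stretch is chr2:30237519-30237714, plus strand, which holds the 196 bases from −250 to −55 before the start. The *Slc4a4* stretch is chr5:89027716-89027965, plus strand, 250 bases that end at the base before the inner start.
Lrrc8a: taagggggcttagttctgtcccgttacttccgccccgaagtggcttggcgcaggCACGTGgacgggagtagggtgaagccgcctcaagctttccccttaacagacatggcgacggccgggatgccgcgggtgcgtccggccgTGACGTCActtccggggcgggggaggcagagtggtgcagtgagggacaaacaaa
Slc4a4: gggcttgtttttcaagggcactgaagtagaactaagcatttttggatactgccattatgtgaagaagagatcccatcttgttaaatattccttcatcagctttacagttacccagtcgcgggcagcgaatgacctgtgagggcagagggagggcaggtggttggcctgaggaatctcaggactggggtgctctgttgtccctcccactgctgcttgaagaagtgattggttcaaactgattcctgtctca
The motifs searched were the cAMP response element (TGACGTCA), the AP-1 element (TGANTCA), the STAT element (TTCNNNGAA), the E-box (CACGTG) and the NF-kB element, and they were chosen after these sequences had been seen. A single cAMP response element lies at −108 to −101 from the *Lrrc8a* start, a motif that 1.55% of 32851 promoters of the same length hold. A single E-box lies at −196 to −191, a motif that 6.02% of them hold. The *Slc4a4* stretch holds none of the 5 motifs, which says only that these letters are not in this window. In the 250 bases before the start, *Lrrc8a* had 68% G and C and 25 CpG, and the inner start of *Slc4a4* 48.8% and 3 CpG, against medians of 52.4% and 6 over all promoters. The outer start of *Slc4a4* had 82% and 44 CpG. All 250 bases before that outer start are annotated as untranslated region, so none of them are shown.

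The partners of *Lrrc8a* in the channel did not rise with it: of the 3 that were tested, edgeR called 1 lower and 0 higher at each age. DESeq2 called 2 lower at each age. LRRC8A forms hexamers with LRRC8B, LRRC8C, LRRC8D or LRRC8E, and the partner sets which solutes pass. *Lrrc8b* had levels of 22.2, 27.7 and 27.7 FPKM in the young sham and 20.0, 21.7 and 17.4 FPKM in the young ICH samples. In the aged sham samples it had 26.3, 21.1 and 25.1 FPKM, and in the aged ICH samples 18.3, 17.1 and 19.1 FPKM. The ICH samples of each age lay below the sham samples of that age, and *Lrrc8b* fell at both ages with log2FC of −0.48 ± 0.12 (SE) each (edgeR, adjusted *P* = 0.0148 in young and 0.0205 in aged mice). *Lrrc8d* did not pass the test, with log2FC of −0.28 ± 0.09 in young and −0.31 ± 0.09 in aged mice (edgeR, adjusted *P* = 0.0588 and 0.0521), although its sham and ICH samples did not overlap at either age. DESeq2 called it lower at both ages (adjusted *P* = 0.0321 and 0.023). *Lrrc8c* had log2FC of 0.07 and 0.06 with 95% confidence intervals from −0.08 to 0.23 and from −0.1 to 0.21. *Lrrc8e* had 0 to 5 reads per sample and was not tested. On the FPKM scale, *Lrrc8a* went from 4.05 ± 0.802 in young sham to 8.52 ± 0.778 in young ICH mice, while *Lrrc8b* went from 25.9 ± 3.18 to 19.7 ± 2.17 (SD, n = 3).

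**Figure D2:**
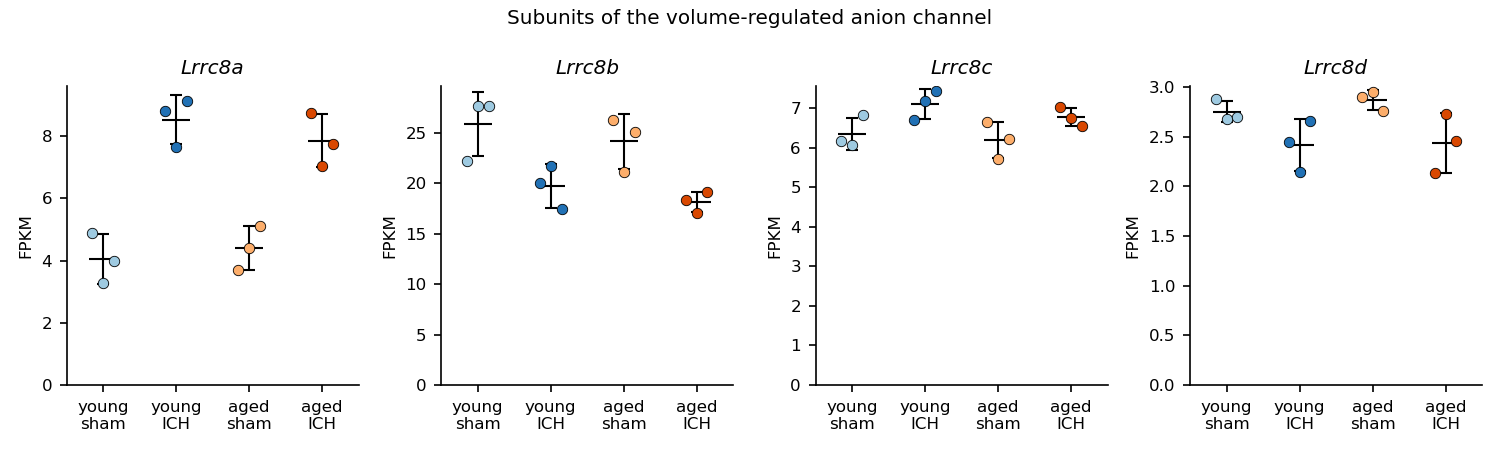
FPKM (vertical axis, linear from 0, a scale per panel) of 4 subunits of the volume-regulated anion channel in the 4 groups. Points are samples, the wide bar is the mean and the whiskers are 1 SD of 3 samples. *Lrrc8a* is higher in every ICH sample than in every sham sample, *Lrrc8b* and *Lrrc8d* are lower in ICH than in sham samples of the same age, and *Lrrc8c* overlaps.

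*Aqp4* (ENSMUSG00000024411) lies on the minus strand of chromosome 18. Its level was 199.4, 170.8 and 170.8 CPM in the young sham samples, and 280.0, 210.1 and 336.5 CPM in the young ICH samples. In the aged sham samples it was 181.1, 170.0 and 180.9 CPM, and in the aged ICH samples 236.9, 248.6 and 208.1 CPM. All ICH samples were above all sham samples, the third young ICH sample was the highest, and the ranges of the 2 ICH groups overlapped. The mean was 180.4 ± 16.5 CPM in young sham, 275.5 ± 63.4 in young ICH, 177.3 ± 6.36 in aged sham and 231.2 ± 20.8 in aged ICH mice (SD, n = 3 each). *Aqp4* rose 1.53-fold in young ICH mice (95% confidence interval 1.24 to 1.89, log2FC 0.61 ± 0.14 SE, edgeR, adjusted *P* = 0.0119). In aged mice the fold change was 1.3 (1.06 to 1.61, log2FC 0.38 ± 0.14 SE), with an unadjusted *P* of 0.0181 in edgeR and an adjusted *P* of 0.0934, which missed the threshold. DESeq2 and the fit of the aged samples alone called *Aqp4* higher in aged mice. So did edgeR without the second or without the third young ICH sample. The young call was lost without the second young sham sample (edgeR, adjusted *P* = 0.0558) and when only the 6 young samples were fitted (edgeR, adjusted *P* = 0.0511).

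The scaffold that holds the AQP4 protein at endfeet did not rise with *Aqp4*. Of the 12 genes listed for the anchoring complex, 4 fell and 0 rose in young ICH mice, and 2 fell and 0 rose in aged ICH mice by edgeR. The shares called lower over all genes tested were 9.23% in young and 6.15% in aged mice. *Dtna*, which encodes α-dystrobrevin, had 10.4, 10.7 and 10.5 FPKM in the young sham samples against 8.85, 8.45 and 8.71 in the young ICH samples. It had 10.0, 10.6 and 10.1 FPKM in the aged sham samples against 7.61, 9.06 and 7.77 in the aged ICH samples. The sham and ICH samples were apart at both ages, and the log2FC was −0.37 ± 0.06 in young and −0.4 ± 0.06 in aged mice (edgeR, adjusted *P* = 0.00378 and 0.00536). *Utrn*, which encodes the dystrophin relative utrophin of endfeet and endothelium, fell as well (log2FC −0.3 and −0.38, edgeR, adjusted *P* = 0.0313 and 0.0153). The sham and ICH samples of *Utrn* overlapped in young mice and were apart in aged mice. *Dmd*, the dystrophin gene, and *Dtnb*, a relative of *Dtna*, fell in young ICH mice (log2FC −0.3 and −0.4, edgeR, adjusted *P* = 0.0296 and 0.0318). In aged mice their log2FC was −0.2 and −0.37 (edgeR, adjusted *P* = 0.135 and 0.0527). DESeq2 called *Dtnb* lower in aged mice too (adjusted *P* = 0.0197).

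Astrocyte genes that clear potassium and keep volume were a list of 8 genes. In young ICH mice 2 of them rose, the gap junction gene *Gjb6* (log2FC 0.45 ± 0.11 SE, edgeR, adjusted *P* = 0.0203) and *Mlc1*, whose protein sits beside chloride channels at endfeet (0.32 ± 0.08, adjusted *P* = 0.0218). Their aged log2FC was 0.06 and 0.05 (edgeR, adjusted *P* = 0.777 and 0.742). In aged ICH mice 1 fell, the gap junction gene *Gja1* (log2FC −0.51 ± 0.14 SE, edgeR, adjusted *P* = 0.032), which had −0.11 in young mice (adjusted *P* = 0.633). *Kcnj10*, the potassium channel of endfeet, had log2FC of 0.2 in young and −0.27 in aged mice and did not pass the test (edgeR, adjusted *P* = 0.277 and 0.177). The interaction log2FC was −0.47 for *Kcnj10*, −0.39 for *Gjb6*, −0.27 for *Mlc1* and −0.41 for *Gja1*, with unadjusted *P* of 0.02, 0.035, 0.0414 and 0.0583 in edgeR and an adjusted *P* of 1 each, so that no interaction passed the test. In aged ICH vs. young ICH, *Kcnj10* had a log2FC of −0.6 ± 0.12 (SE, edgeR, unadjusted *P* = 0.000471, adjusted *P* = 0.15), and these groups did not overlap.

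*Aqp9* and *Aqp11* did not pass the test at either age. *Aqp9* (ENSMUSG00000032204) had 1.22 to 1.6 CPM in young sham, 1.26 to 1.94 in young ICH, 0.993 to 1.68 in aged sham and 1.16 to 1.51 in aged ICH samples, and all neighbouring groups overlapped. Its log2FC was 0.25 in young and −0.06 in aged ICH mice, with 95% confidence intervals from −0.28 to 0.78 and from −0.59 to 0.48. Its lowest count was 30 reads, with a 95% Poisson interval from 20.2 to 42.8. *Aqp11* (ENSMUSG00000042797), a channel of the endoplasmic reticulum, varied little, with 12.1 to 15.1 CPM over all samples. Its log2FC of −0.07 and 0.02 had 95% confidence intervals from −0.29 to 0.15 in young and from −0.2 to 0.24 in aged mice. Of the 9 remaining aquaporins listed, *Aqp1* and *Aqp6* had enough reads to be tested. *Aqp6*, at 2 to 18 reads per sample, fell in young ICH mice (log2FC −1.6 ± 0.44 SE, edgeR, adjusted *P* = 0.0267) and had a log2FC of −0.25 in aged ICH mice (adjusted *P* = 0.742), and DESeq2 gave it no adjusted *P* at either age. *Aqp1*, at 32 to 867 reads per sample, had a log2FC of 1.66 ± 0.95 in young and 2.69 ± 1.04 in aged ICH mice and did not pass the test (SE, edgeR, adjusted *P* = 0.248 and 0.111). DESeq2 called it in aged mice (adjusted *P* = 0.0498), whose sham and ICH samples did not overlap.

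*Slc12a2* (ENSMUSG00000024597), on the plus strand of chromosome 18, varied more between samples of a group than between groups. It had 163.1, 119.2 and 124.5 CPM in the young sham samples and 104.0, 101.4 and 236.7 CPM in the young ICH samples. In the aged sham samples it had 129.5, 142.7 and 146.7 CPM, and in the aged ICH samples 139.3, 176.4 and 92.2 CPM. The third young ICH sample was the highest of all 12, and the other 2 samples of that group were below every sham sample. The log2FC was 0.12 ± 0.31 in young and −0.04 ± 0.31 in aged ICH mice (SE, edgeR, adjusted *P* = 0.821 and 0.953), with 95% confidence intervals from −0.55 to 0.79 and from −0.71 to 0.63. Without the third young ICH sample, the young value turned to −0.4 ± 0.22 (SE, edgeR, adjusted *P* = 0.256). Without the third aged ICH sample, the aged value turned to 0.18 ± 0.31 (SE, edgeR, adjusted *P* = 0.779).

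NKCC1 is abundant in the choroid plexus, the epithelium that makes cerebrospinal fluid and borders the ventricle beside the caudate putamen, and transcripts of that epithelium varied strongly between these samples. The summed level of 10 choroid plexus genes was 4250.3 CPM in the third young ICH sample, 1608.8 and 2051.5 in the first and second aged ICH samples, and 511.6 and 320.1 in the first and second young sham samples. In the other 7 samples it lay between 10.9 and 95.8 CPM, and none of the 10 genes was at 0 in any sample. *Aqp1*, the water channel of this epithelium, had 27.3 CPM in the third young ICH sample and 9.26 and 13.2 CPM in the first and second aged ICH samples, against 1.08 to 5.39 CPM in the other 9. The samples highest in choroid plexus transcripts were thus also the highest in *Aqp1*, and the highest and second highest in *Slc12a2* were the third young ICH and the second aged ICH sample. *Aqp4* was also highest in the third young ICH sample. With the 3 libraries highest in choroid plexus transcripts left out, the log2FC of *Slc12a2* in young mice was −0.4 ± 0.13 (SE, edgeR, adjusted *P* = 0.0757). Without the third young ICH sample, *Aqp4* had its lowest young log2FC, 0.44, and kept its call. In aged mice the log2FC of *Aqp4* went from 0.38 to 0.24 ± 0.15 without these libraries, which leaves 1 aged ICH sample that is assumed to vary like the other groups.

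**Figure D3:**
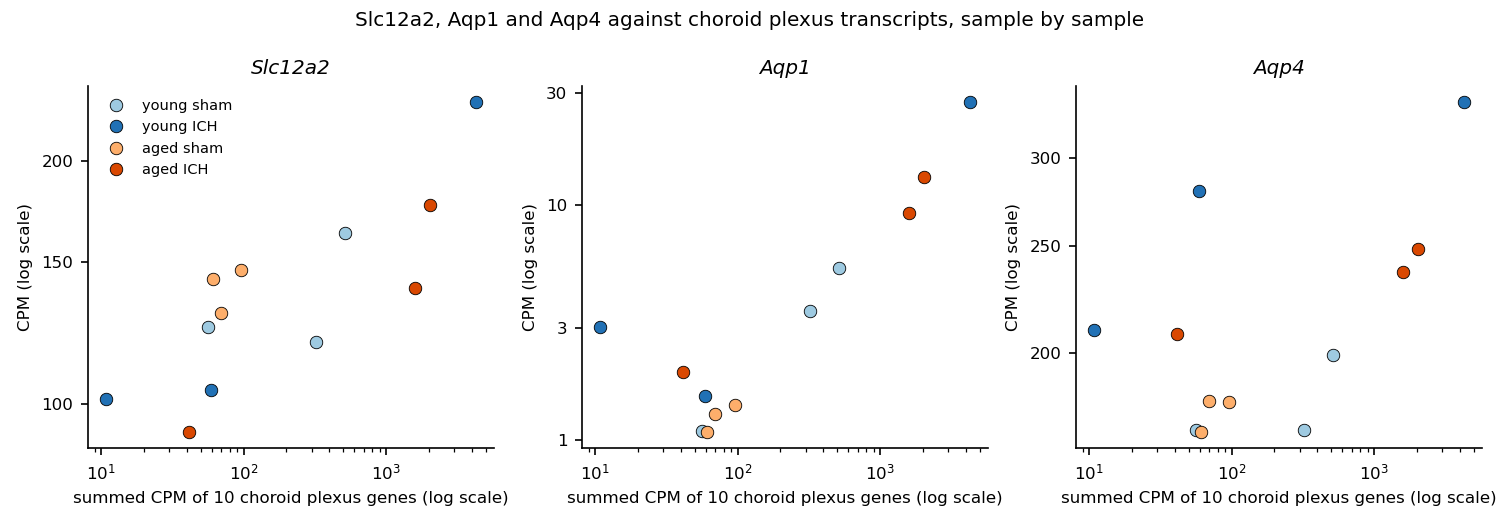
CPM of *Slc12a2*, *Aqp1* and *Aqp4* (vertical axes, log scale) against the summed CPM of 10 choroid plexus genes in the same sample (horizontal axes, log scale). Each point is 1 of the 12 samples, in the colour of its group. The third young ICH sample, at 4250.3 CPM of choroid plexus genes, is the highest for all 3 genes, and for *Aqp4* the ICH samples are above the sham samples also at low choroid plexus levels.

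Among the other genes of the *Slc12* family, the family of the cation-chloride cotransporters, 3 of 8 rose and 0 fell after ICH at either age. Of all genes tested, 9.89% were called higher in young and 7% in aged mice. *Slc12a9* had 7.97, 6.64 and 7.1 FPKM in the young sham samples against 10.5, 10.6 and 10.9 FPKM in the young ICH samples. Its log2FC was 0.47 ± 0.07 in young and 0.27 ± 0.07 in aged mice (SE, edgeR, adjusted *P* = 0.00224 and 0.0296). The potassium-chloride cotransporter genes *Slc12a4* and *Slc12a7*, whose proteins let swollen cells lose salt, also rose (log2FC 0.71 and 0.85 in young mice, edgeR, adjusted *P* = 0.01 and 0.0289). In aged mice their log2FC was 0.54 and 0.8 (edgeR, adjusted *P* = 0.0421 and 0.0466). *Slc12a5*, the neuronal KCC2, had −0.29 and −0.24 and did not pass the test (edgeR, adjusted *P* = 0.0503 and 0.114). With DESeq2 it was called lower in young mice (adjusted *P* = 0.0139) but not in aged mice (adjusted *P* = 0.0608). The next list held 7 genes, for kinases that switch cation-chloride cotransporters on and off and for a scaffold of these kinases. Of them, 3 fell and 0 rose in young and 2 fell and 0 rose in aged ICH mice. *Wnk3* fell at both ages (log2FC −0.58 and −0.45, edgeR, adjusted *P* = 0.00437 and 0.018), as did *Cab39*, the gene of the scaffold MO25 (−0.26 and −0.27, adjusted *P* = 0.0123 and 0.0156), and *Wnk2* fell in young mice (−0.3, adjusted *P* = 0.0494) and had −0.2 in aged mice (adjusted *P* = 0.19).

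*Slc4a4* (ENSMUSG00000060961) lies on the plus strand of chromosome 5, from 88886818 to 89239653, and has more than 1 start, which counts per gene cannot tell apart. In the aged sham samples it had 247.5, 276.6 and 266.3 CPM, and in the aged ICH samples 185.7, 217.9 and 157.8 CPM. In the young sham samples it had 268.8, 246.5 and 217.0 CPM, and in the young ICH samples 237.1, 191.9 and 222.5 CPM. The aged groups did not overlap, whereas the young groups did. In aged mice the mean went from 263.4 ± 14.7 to 187.1 ± 30.1 CPM (SD, n = 3 each), a fold change of 0.71 (95% confidence interval 0.592 to 0.852, log2FC −0.49 ± 0.12 SE, edgeR, adjusted *P* = 0.0221). In young mice the fold change was 0.89 (0.742 to 1.07, log2FC −0.17 ± 0.12 SE, edgeR, adjusted *P* = 0.355). The difference between these responses did not pass the test (interaction log2FC −0.32 ± 0.17 SE, unadjusted *P* = 0.0803 in edgeR, adjusted *P* = 1). The aged call was lost when the first or the third aged ICH sample, or the second or the third aged sham sample, was left out, with adjusted *P* in edgeR from 0.0522 to 0.0848, and kept its direction. Without the 3 libraries highest in choroid plexus transcripts the aged log2FC was −0.73 ± 0.15 (SE, edgeR, adjusted *P* = 0.046), but this rests on the third aged ICH sample alone, the lowest of the 3, which is assumed to vary like the other groups. Of the 9 other bicarbonate transporters listed, 8 were tested and 0 were called at either age by edgeR, with 3 in young and 2 in aged mice at an unadjusted *P* under 0.05, and DESeq2 called 2 and 0. Among them, *Slc4a5* of the choroid plexus ranged from 1 to 879 reads per sample, and the neuronal *Slc4a10* had log2FC of −0.21 and −0.02.

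*Abcc8* (ENSMUSG00000040136) and *Trpm4* (ENSMUSG00000038260) lie on the minus strand of chromosome 7, from 46104523 to 46180033 and from 45302632 to 45333780. *Abcc8* had 33.2, 44.3 and 43.4 CPM in the young sham, 35.3, 35.5 and 27.9 in the young ICH, 41.2, 34.0 and 42.7 in the aged sham and 38.4, 28.7 and 41.4 in the aged ICH samples. *Trpm4* had 14.0, 18.6 and 21.2 CPM in the young sham, 13.4, 19.4 and 13.4 in the young ICH, 22.3, 16.4 and 21.1 in the aged sham and 22.1, 16.2 and 18.3 in the aged ICH samples. For both genes the 4 groups overlapped. *Abcc8* had a log2FC of −0.29 ± 0.16 in young and −0.12 ± 0.16 in aged ICH mice (SE, edgeR, adjusted *P* = 0.218 and 0.656). *Trpm4* had −0.22 ± 0.19 and −0.08 ± 0.19 (SE, edgeR, adjusted *P* = 0.464 and 0.832). The upper ends of the 95% confidence intervals of the fold change were 1.04 and 1.17 for *Abcc8* and 1.15 and 1.27 for *Trpm4* in young and aged mice. A rise larger than that lies outside the intervals, for the tissue as a whole at 24 h.

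SUR1 also forms the ATP-sensitive potassium channel of neurons with Kir6.2, the product of *Kcnj11*. *Kcnj11* had 12.4, 13.2 and 14.8 FPKM in the young sham against 11.4, 12.3 and 9.12 FPKM in the young ICH samples, and fell (log2FC −0.39 ± 0.12 SE, edgeR, adjusted *P* = 0.0395). In aged mice it had log2FC −0.38 ± 0.12 (SE, edgeR, adjusted *P* = 0.0574), and DESeq2 called it lower there (adjusted *P* = 0.0228). *Trpm5*, the nearest relative of *Trpm4*, had 5 to 20 reads in the young sham samples and 26 to 43 in the young ICH samples, and rose (log2FC 1.48 ± 0.41 SE, edgeR, adjusted *P* = 0.028). Its aged log2FC was 0.91 ± 0.45 (SE, edgeR, adjusted *P* = 0.205). *Kcnj8* and *Abcc9*, which encode the same kind of channel in mural cells, had log2FC of 0.4 and 0.04 in young and 0.36 and −0.25 in aged mice and did not pass the test.

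**Figure D4:**
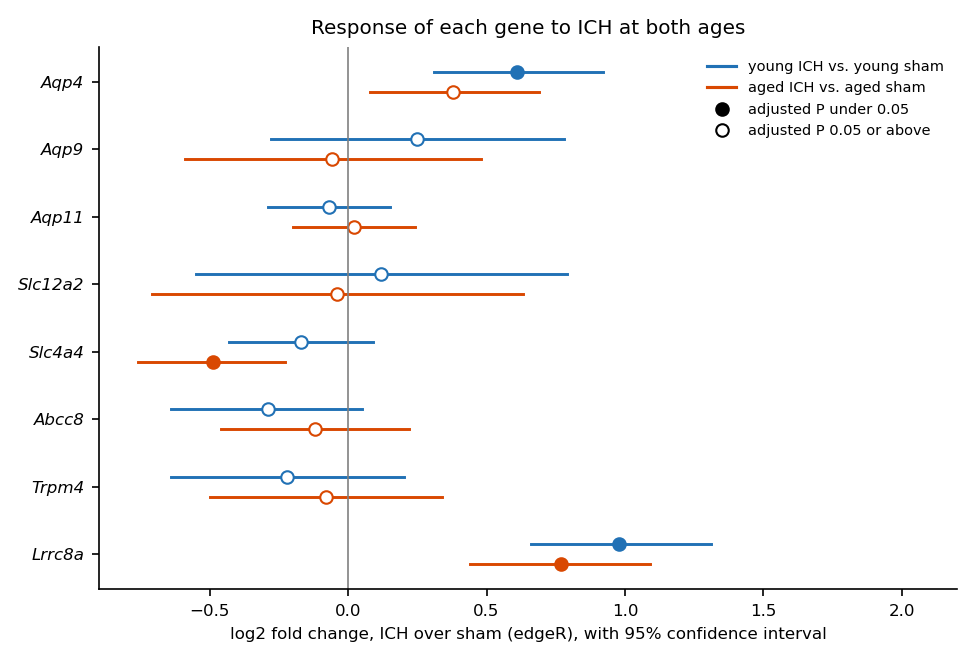
Log2FC of ICH over sham (horizontal axis, edgeR) for each of the 8 genes, in young and in aged mice. Points are estimates, lines are 95% confidence intervals, and filled points have an adjusted *P* under 0.05. *Lrrc8a* is filled at both ages, *Aqp4* in young and *Slc4a4* in aged mice, and the intervals of the other 5 genes include 0.

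No difference with age passed the test for these genes. In aged sham vs. young sham 0 of the 8 were called, against 0.102% of all genes tested, and their log2FC lay between −0.04 and 0.15. In aged ICH vs. young ICH 0 of the 8 were called, against 0.0558% of all genes tested, with log2FC from −0.26 for *Aqp9* to 0.3 for *Trpm4*. In both comparisons 0 of the 8 had an unadjusted *P* under 0.05 in edgeR, and DESeq2 called 0. The interaction of age and ICH was called for 0 of the 8 and 0% of all genes in edgeR, with 606 genes at an unadjusted *P* under 0.05 and none of the 8 among them, and DESeq2 called 1 gene. The interaction log2FC was −0.23 (95% confidence interval −0.66 to 0.2) for *Aqp4* and −0.22 (−0.67 to 0.24) for *Lrrc8a*, so that neither response was shown to differ between the ages. The young and aged comparisons share no samples, but each sham group serves 2 comparisons.

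Marker genes of several cell types moved with ICH in these samples. The 9 astrocyte marker genes had a summed level of 5393.3 to 5945.5 CPM in young sham, 5117.1 to 5851.8 in young ICH, 5546.9 to 6116.8 in aged sham and 4880.8 to 5386.2 in aged ICH samples. Of these genes, 4 were called higher and 0 lower in young mice (median log2FC 0.26), and 2 higher and 0 lower in aged mice (median log2FC −0.03). The 9 reactive astrocyte genes all rose at both ages, from 818 to 1171.5 CPM in young sham to 2589.3 to 3893.3 CPM in young ICH samples, and from 621 to 1565.8 CPM in aged sham to 2776.7 to 3482.9 CPM in aged ICH samples. The sum over general astrocyte genes thus overlapped between sham and ICH in young mice and was lower in every ICH sample than in any sham sample in aged mice, whereas the reactive genes were apart at both ages. Endothelial genes went from 315.4 to 385.1 CPM to 436.5 to 451.5 CPM in young mice and from 348.3 to 395.4 CPM to 402.1 to 477.7 CPM in aged mice, with 5 and 3 of 8 called higher. Monocyte and macrophage genes lay at 8.3 to 40.2 CPM in sham and 58.4 to 125.9 CPM in ICH samples. Neutrophil genes lay at 10.2 to 26.1 and 19.8 to 52.9 CPM, with *Ly6g*, *Camp*, *Ltf* and *Retnlg* at 0 in at least 1 sample. The ICH samples thus held more transcripts of vessel and blood-borne immune cells than the sham samples of the same age. Of the remaining lists, homeostatic microglia genes had 2 of 7 called lower at each age, red blood cell genes 3 of 5 called higher in young mice, general neuron genes 3 of 7 called lower in young mice, oligodendrocyte genes 3 of 7 called lower in aged mice, and ependymal genes 0 of 5 called at either age by edgeR, with 0 at an unadjusted *P* under 0.05. Genes of striatal projection neurons, which define the tissue, were present in every sample but ranged from 325.3 CPM in the first aged ICH sample to 3024 CPM in the first young sham sample. The part of these changes in the results for *Lrrc8a*, *Aqp4* and *Slc4a4* was not tested, and in bulk tissue fewer cells of a type and less RNA per cell cannot be told apart.

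Without the ICH library lowest in striatal neuron genes at each age, *Lrrc8a* had log2FC of 1.05 in young and 0.69 in aged mice (edgeR, adjusted *P* = 0.00423 and 0.049). *Slc4a4* then had −0.48 in aged mice (edgeR, adjusted *P* = 0.078). Without the 3 libraries highest in choroid plexus genes, *Lrrc8a* had 0.94 and 0.76 (edgeR, adjusted *P* = 0.0139 and 0.0939), the latter against a single aged ICH sample.

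The genes whose pattern over the 12 samples was most like that of a called gene were ranked among 16823 genes by Pearson's r of log2 CPM, as a description. For *Aqp4* they were *P4ha3* (r = 0.972), *Scara5* (0.965) and *Ybx1* (0.961), and r of the deviations from the group means was 0.91, 0.9 and 0.936. For *Lrrc8a* they were *Ehd4*, *Rasip1* and *Zbtb7b*, with r of 0.976 each and r of the deviations between 0.823 and 0.857. For *Slc4a4* they were *Klhl4* (0.948), *Padi2* (0.943) and a gene without a symbol in the table (0.942). The values of a pair come from the same libraries and share their depth and cell makeup.

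Over all 11 transporter lists, 101 genes of which 90 were tested, 10 rose and 19 fell in young ICH mice and 4 rose and 9 fell in aged ICH mice. This is 32.2% and 14.4% of those tested, beside the 19.1% and 13.2% over all genes given above, and the median log2FC was −0.01 and −0.06. These counts moved with the samples fitted. With single libraries left out, 4 to 12 rose and 6 to 19 fell in young mice, with the fewest, 4 and 6, without the second young sham sample, 5 and 9 without the third young sham or the third young ICH sample, and 9 and 10 without the first young ICH sample. In aged mice 1 to 9 rose and 1 to 15 fell, with 1 and 1 without the first aged ICH sample, 1 and 2 without the third aged ICH or the first aged sham sample, 1 and 6 without the second aged sham, 2 and 6 without the third aged sham and 9 and 15 without the third young ICH sample. With only the samples of the compared groups in the fit, 5 rose and 9 fell in young and 6 rose and 11 fell in aged mice, and DESeq2 gave 13 and 22 and 5 and 16. Without the 3 libraries highest in choroid plexus genes, 5 rose and 11 fell in young and 0 rose and 2 fell in aged mice. Without the ICH library lowest in striatal neuron genes at each age, 10 rose and 19 fell in young and 1 rose and 2 fell in aged mice. The counts over all genes moved as well, from 4110 in young and 2828 in aged mice in the main fit. DESeq2 called 4848 and 3702 of 21495, and the fit of the compared groups 2442 of 20401 and 2481 of 20661. Without the libraries lowest in striatal neuron genes they were 3897 and 769 of 21878, and those without the choroid plexus libraries are given below.

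**Figure D5:**
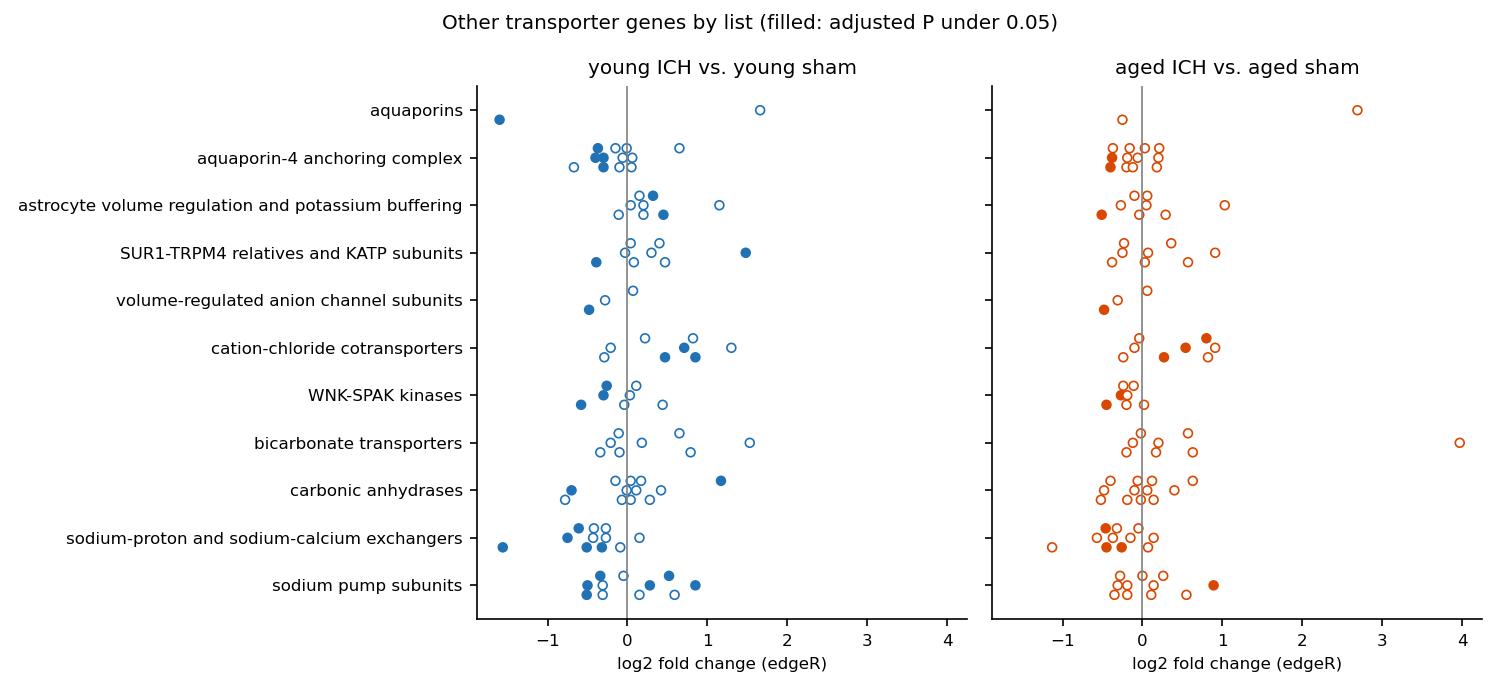
Log2FC of ICH over sham (horizontal axes, edgeR) for the tested genes of 11 transporter lists (rows), in young (left) and aged (right) mice. Each point is a gene, filled where the adjusted *P* is under 0.05. In young mice 10 filled points lie to the right of 0 and 19 to the left, and in aged mice 4 and 9.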

How the data were processed

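RNA-seq was made from 12 pools of perihematomal caudate putamen, and the labels gave each pool its group. The authors aligned the reads to GRCm38.p6 with HISAT2, used featureCounts of Subread for gene counts, and deposited in one table a raw count per gene and sample and the FPKM, which scale the count to transcript length and mapped fragments. All 24 columns were assigned, 0 were left over, and no pair of samples of a group held identical values.

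Counts were tested with edgeR 4.0.16 (R 4.3.3, limma 3.58.1), quasi-likelihood, TMM normalization, 4 groups in 1 fit, after filterByExpr with a minimum count of 10. *P* values were adjusted by the Benjamini-Hochberg method over the 21495 genes tested and called under 0.05. CPM use the normalized library size, and log2 CPM a prior count of 2. FPKM were not tested, and each deposited value is that of 1 pool. The test was checked on simulated counts. Positions and overlaps come from GENCODE vM21, which matched 54409 of 54833 identifiers. The smallest depth was 28410896 counted reads, and the Poisson interval covers counting error only.

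The 8 genes and all lists were chosen with earlier results of these data known. All 8 genes are named in every comparison, and from each transporter list up to 2 higher and 2 lower called genes of smallest *P*, with a few related genes fixed by role. *Dtnb*, *Slc12a7* and *Wnk2* were added after their values were seen, to complete counts of 5 or fewer, and a few called or related genes of the lists are counted but not reported here by name. Alternatives were size factors of DESeq2, no filter, only the groups compared, a replicate block, DESeq2 1.42.0, the criteria of the study, and each library left out. Leaving out the libraries highest in choroid plexus or lowest in striatal neuron genes was added after seeing the data.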

Additional observations from a re-analysis of the deposited data

How the results depend on the processing

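Of 752 gene values recomputed, 710 kept direction and side of the threshold. In young ICH vs. young sham, 1 of the 8 genes was called when only the compared groups were fitted, and 1 to 2 with single libraries left out. In aged ICH vs. aged sham, 1 was called by the criteria of the study, 1 without the libraries highest in choroid plexus genes, 1 without those lowest in striatal neuron genes, and 1 to 3 with single libraries left out, while DESeq2 and the fit of the compared groups alone each called 3, adding *Aqp4*. With the replicate block 2 of the 8 genes were called at either age, and it changed no call of these genes, while over the 11 transporter lists 10 rose and 11 fell in young and 3 rose and 10 fell in aged mice with it. Same-numbered samples had correlations of their deviations from −0.454 to 0.235. These show no common pairing by number, but they cannot exclude one, since other differences between pools enter them.

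Leaving out the libraries highest in choroid plexus genes turned *Slc12a2* to −0.4 in young mice and *Abcc8* to 0.08 in aged mice. With single libraries left out, log2FC changed sign as follows, none of these past the threshold. In young ICH vs. young sham, *Slc12a2* ran from −0.4 to 0.34. In aged ICH vs. aged sham, *Aqp9* ran from −0.26 to 0.07, *Aqp11* from 0.00 to 0.05, *Slc12a2* from −0.27 to 0.18, *Abcc8* from −0.23 to 0.02 and *Trpm4* from −0.21 to 0.02. In aged sham vs. young sham, *Aqp4* ran from −0.06 to 0.05, *Aqp9* from −0.09 to 0.25, *Aqp11* from −0.13 to 0.02, *Slc12a2* from −0.04 to 0.2, *Abcc8* from −0.16 to 0.06 and *Lrrc8a* from −0.05 to 0.23. In aged ICH vs. young ICH, *Aqp11* ran from −0.01 to 0.12 and *Slc12a2* from −0.35 to 0.4. For the interaction, *Slc12a2* ran from −0.39 to 0.36. The cause of these changes was not tested.

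Over all genes, 4110, 2828, 22 and 12 were called in the young ICH, aged ICH, sham age and ICH age comparisons. Fitting only the compared groups gave 2442 for the first and 10 and 3 for the last 2, no filter gave 77 and 61, and DESeq2 289 and 204. Leaving out choroid plexus libraries gave 2199, 431, 20 and 2, and leaving out those lowest in striatal neuron genes gave 769 in aged ICH and 5 in the ICH age comparison. *Aqp9*, *Aqp6* and *Trpm5* rest on few reads and carry more counting error than *Aqp4*.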

Other observations

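Genes for the exchangers that trade sodium for calcium or protons fell in part after ICH. Of 11 sodium-proton and sodium-calcium exchangers, 5 fell and 0 rose in young ICH mice, and 3 fell and 0 rose in aged ICH mice. Over all genes tested, 9.23% were called lower in young and 6.15% in aged mice. *Slc8a1*, the sodium-calcium exchanger NCX1, had a mean of 6.0 ± 0.71 FPKM in young sham and 3.8 ± 0.15 in young ICH mice (SD, n = 3), a log2FC of −0.75 ± 0.12 (SE, edgeR, adjusted *P* = 0.00253). In aged mice its log2FC was −0.46 ± 0.12 (SE, edgeR, adjusted *P* = 0.0258). *Slc8a2*, the exchanger NCX2 of neurons, fell from 62.8 ± 1.84 to 43.8 ± 8.81 FPKM in young mice (SD, n = 3) and had log2FC of −0.61 and −0.45 at the 2 ages (edgeR, adjusted *P* = 0.00752 and 0.038).

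Of the 12 sodium pump genes listed, 11 were tested, and in young ICH mice 3 rose and 3 fell. *Atp1b2*, the β subunit of astrocytes, rose from 110.5 ± 11.6 to 168.1 ± 18.9 FPKM (log2FC 0.52 ± 0.1 SE, edgeR, adjusted *P* = 0.00556), with an aged log2FC of 0.26 (adjusted *P* = 0.108). *Atp1b1*, a β subunit of neurons, fell (log2FC −0.34 ± 0.1 SE, edgeR, adjusted *P* = 0.0367), and so did *Fxyd6* (−0.5 ± 0.16, adjusted *P* = 0.0434), with aged log2FC of −0.31 and −0.19 (adjusted *P* = 0.0652 and 0.468). DESeq2 called *Atp1b1* lower in aged mice as well (adjusted *P* = 0.0167). *Fxyd5*, a regulator of the pump, rose at both ages, with 3.47 to 4.47 FPKM in young sham and 6.82 to 7.92 in young ICH samples and 3.36 to 5.28 in aged sham and 6.72 to 9.17 in aged ICH samples (log2FC 0.85 and 0.89, edgeR, adjusted *P* = 0.00527 and 0.008). It was the pump gene that edgeR called in aged mice, while DESeq2 called 2. Of 13 carbonic anhydrase genes, 12 were tested, and in young ICH mice *Car13* rose (log2FC 1.17 ± 0.31 SE, edgeR, adjusted *P* = 0.0217) and *Car10* fell (−0.7 ± 0.22, adjusted *P* = 0.0441). Their aged log2FC was 0.63 and −0.4 (edgeR, adjusted *P* = 0.192 and 0.252). The young sham and young ICH samples overlapped for *Car10* and not for *Car13*. In aged mice 0 of the 12 were called by edgeR, with 2 at an unadjusted *P* under 0.05, and DESeq2 called 1.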
